A study of Mus musculus with 3 samples.

Results

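Open chromatin at the promoters of developmental regulators other than the Hox genes was examined in mouse islets before and after loss of Taf4, one of the TBP-associated factors of TFIID, which assembles at promoters to start transcription. The set was chosen by name alone: autosomal protein-coding genes whose symbol consists of Fox, Sox, Pax, Tbx, Lhx, Dlx, Gata, Wnt or the name of the sine oculis homeobox family and a number or letter-number, without Foxa1, Foxa2, Foxa3, Sox9, Sox17 and Pax6. It held 116 of the 21275 autosomal protein-coding genes with an annotated start, namely 37 Fox, 15 Sox, 8 Pax, 12 Tbx, 8 Lhx, 6 sine oculis homeobox, 6 Dlx, 5 Gata and 19 Wnt genes. Sox1 was not matched in the annotation used, and 6 X-linked genes of these families were left out by the rule.

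ATAC-seq, in which a transposase inserts sequencing adapters where DNA is accessible, was performed on cells dissociated from islets of Langerhans of mice of the strain labelled C5LBl6. There was 1 library from wild type (WT) mice, 1 from mice labelled Taf4 KO 1 week and 1 from mice labelled Taf4 KO 5 weeks after inactivation. In the study, adult animals with floxed Taf4 alleles and an *Ins1*::Cre-ERT2 transgene received tamoxifen, and its control animals were Taf4+/+ with the same transgene and treatment, although the label of the WT library states only the genotype. The driver acts in beta cells, so the other islet cells of the Taf4 KO animals keep the gene. Each group had a single library without a replicate, no p-value was computed, and each difference below is one between libraries. A gene was counted as called when a peak of the authors' list reached the 1000 bp before or the first 100 bp after any of its starts.

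The families encode proteins that set cell identity in the embryo. Fox (forkhead), Sox (HMG box), Pax (paired domain), Tbx (T-box), Lhx (LIM homeobox), sine oculis homeobox, Dlx (homeobox) and Gata (zinc finger) proteins bind DNA, whereas Wnt genes encode secreted ligands of Frizzled receptors. Many of these genes have CpG-rich promoters that are held silent by Polycomb complexes in cells that do not use them, while some Fox and Sox genes are used in most cell types.

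Promoter sequences of 3 genes are given here, each from a different call pattern. Foxk2 was called in all 3 lists, Wnt9b in WT and at 5 weeks and Tbx1 in no list. Foxk2 and Wnt9b were taken for the strongest peak of their pattern, and Tbx1 for the highest CpG content among uncalled members. Each sequence is the 250 bases before the main start on mm9, written 5′ to 3′ on the gene's strand, with every CpG in capitals. The positions are chr11:121121054-121121303 (plus strand) for Foxk2, chr11:103611136-103611385 (minus strand) for Wnt9b and chr16:18587063-18587312 (minus strand) for Tbx1. The Foxk2 bases overlap a coding exon of another Foxk2 transcript, and those of Wnt9b and Tbx1 overlap no annotated exon.
Foxk2: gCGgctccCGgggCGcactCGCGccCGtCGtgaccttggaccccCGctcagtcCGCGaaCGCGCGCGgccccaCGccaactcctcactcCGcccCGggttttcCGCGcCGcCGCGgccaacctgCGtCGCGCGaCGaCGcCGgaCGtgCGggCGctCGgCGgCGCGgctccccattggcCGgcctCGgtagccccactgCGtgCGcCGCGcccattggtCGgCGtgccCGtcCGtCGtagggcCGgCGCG
Wnt9b: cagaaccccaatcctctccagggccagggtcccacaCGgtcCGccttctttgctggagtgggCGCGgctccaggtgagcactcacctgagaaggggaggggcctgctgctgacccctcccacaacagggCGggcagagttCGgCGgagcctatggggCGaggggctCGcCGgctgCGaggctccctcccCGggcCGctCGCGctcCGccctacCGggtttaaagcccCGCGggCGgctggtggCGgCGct
Tbx1: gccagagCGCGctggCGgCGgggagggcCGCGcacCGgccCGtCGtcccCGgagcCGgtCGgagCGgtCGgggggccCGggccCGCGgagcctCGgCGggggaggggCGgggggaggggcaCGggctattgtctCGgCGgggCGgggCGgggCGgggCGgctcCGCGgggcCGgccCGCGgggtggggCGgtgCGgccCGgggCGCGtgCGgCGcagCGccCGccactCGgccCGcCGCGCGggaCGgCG

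The numbers of CpG in these stretches were 50 for Foxk2, 22 for Wnt9b and 48 for Tbx1. The Tbx1 promoter thus held nearly as many as that of Foxk2, but no peak of any list lay over it. Peaks covered all 250 bases of the Foxk2 stretch in WT and at 5 weeks and 227 bases at 1 week. The Wnt9b stretch was covered in full in WT and at 5 weeks and by no promoter peak at 1 week.

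The 3 lists differ in depth, which bears on each count. The WT list held 60898 peaks and those of Taf4 KO 150354 (1 week) and 151725 (5 weeks). The background read depth recovered from them was 1.76 and 2.57 times the WT value at 1 and 5 weeks. Strength is given as the caller's -log10 q, which belongs to its own list and grows with depth, or as the percentile of the peak within its list. The median -log10 q of all peaks was 3.71 in the WT, 2.08 in the 1 week and 2.38 in the 5 week list. An equal -log10 q thus stands at a higher percentile in the Taf4 KO lists, and percentiles are not on a like scale between lists. Counts are therefore also given for lists scaled to the WT background. The promoters of 6 of 6 beta cell markers (Ins1, Ins2, Pdx1, Mafa, Nkx6-1 and Iapp) were called in each list. Markers of other cells were called in part: 2, 3 and 3 of 3 alpha cell markers in the WT, 1 week and 5 week lists, 0, 1 and 2 of 2 delta cell markers, 1, 2 and 3 of 4 endothelial markers, 0, 0 and 2 of 3 stellate and fibroblast markers, 0, 0 and 1 of 4 acinar markers, 1, 0 and 1 of 2 duct markers and 0, 1 and 0 of 2 immune markers. After scaling to the WT background the counts of beta and alpha cell markers were unchanged. Endothelial markers then had 1, 1 and 0 calls and duct markers 1, 0 and 0. No delta, stellate and fibroblast, acinar or immune marker was called in any scaled list. The part of cell composition and of depth in the results was not tested.

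Developmental regulators were called less often than genes at large in WT and at 1 week, while at 5 weeks the interval of their share held that of all genes. In WT 56 of 116 had a promoter peak, or 48.3% (Wilson 95% interval 39.4 to 57.3, which covers counting only), against 59.9% of all autosomal genes. At 1 week 48 were called, or 41.4% (32.8 to 50.5), against 56.1%. At 5 weeks 72 were called, or 62.1% (53.0 to 70.4), against 66.7%. The net difference from WT was thus -8 genes at 1 week and 16 at 5 weeks, beside -796 and 1449 over all genes. After scaling to the WT background the members called were 56 in WT, 30 at 1 week and 42 at 5 weeks, against 59.7%, 47.6% and 56.9% of all genes, so the 5 week difference turned from 16 to -14. The order against all genes also depended on the window: from 2000 bp upstream to 500 bp downstream 71 (61.2%), 59 (50.9%) and 92 (79.3%) members were called in the WT, 1 week and 5 week lists, against 63.0%, 60.4% and 70.6% of all genes. In the whole gene with 1000 bp upstream the WT share was 81.9% against 70.3%. In the scaled lists both Taf4 KO libraries held fewer of these promoters than WT, as was the case over all genes, at -2565 and -594.

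Calls of single genes differed in both directions. Of the 56 called in WT, 19 had no promoter peak at 1 week (33.9%, against 14.7% of all genes called in WT) and 6 had none at 5 weeks (10.7%, against 1.82%). Of the 60 not called in WT, 11 were called at 1 week (18.3%, against 12.7%) and 22 at 5 weeks (36.7%, against 19.7%). After scaling, 29 of 56 had none at 1 week (51.8%, against 22.7%) and 17 had none at 5 weeks (30.4%, against 7.36%), while 3 of 60 were called at 1 week (5.0%, against 3.65%) and 3 at 5 weeks (5.0%, against 3.98%). Losses then outnumbered gains at both times, and the gains were near the share over all genes. Both comparisons share the WT library. Over the 3 lists, 37 members were called in all (31.9%, against 51.0% of all genes) and 35 in none (30.2%, against 30.5%). A further 13 were called in WT and at 5 weeks, 14 at 5 weeks alone, 8 in both Taf4 KO lists alone, 3 at 1 week alone, 6 in WT alone and 0 in WT and at 1 week alone.

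**Figure D1:**
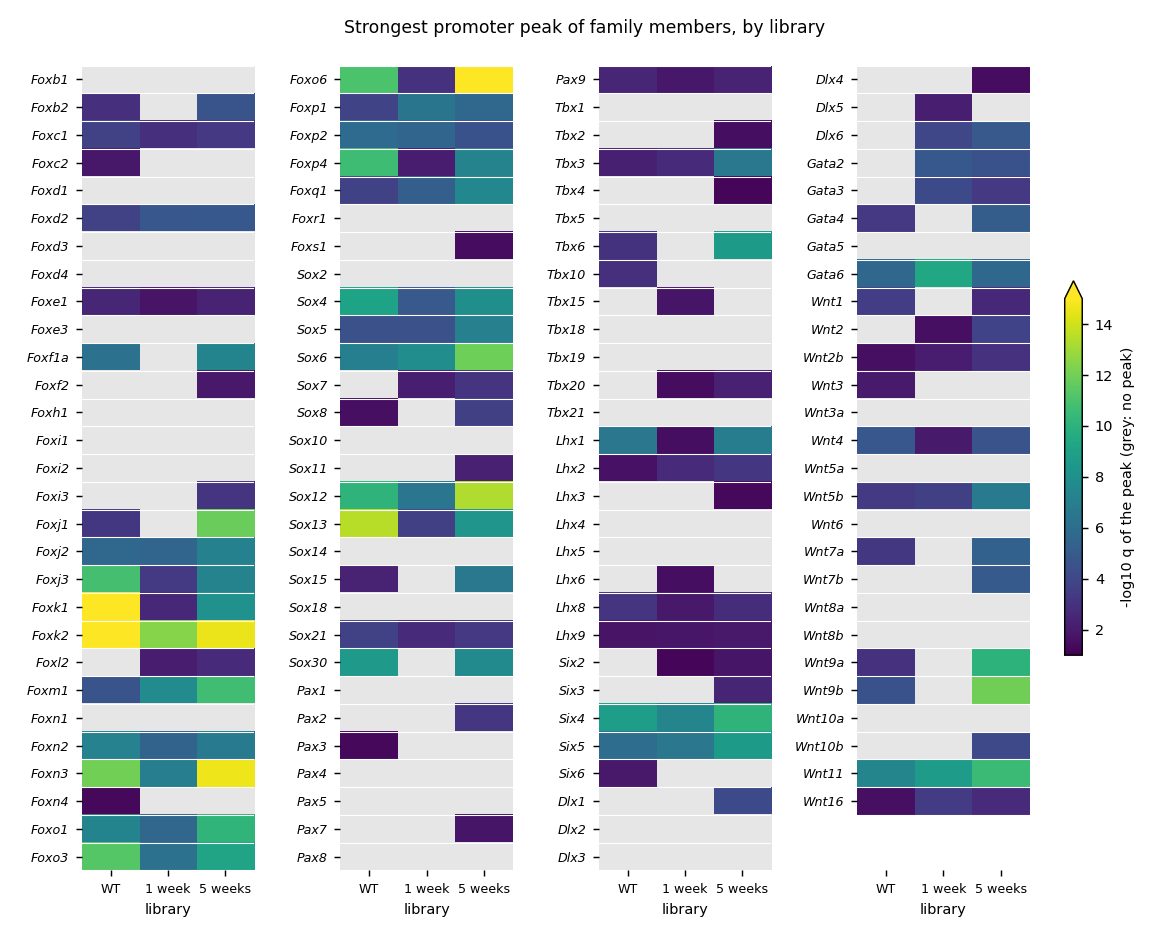
Strongest promoter peak of the members (rows, all but 2 of the 116 drawn, in 4 columns by family) in the 3 libraries, with colour for its -log10 q (scale from 1 to 15, brighter above) and grey where no peak was called. Coloured rows across all libraries (37 genes) are mainly Fox and Sox genes, and many rows are grey throughout.

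The Fox family was divided between its subfamilies. Of 37 Fox genes 22 were called in WT, 18 at 1 week and 24 at 5 weeks. The Foxj, Foxk, Foxm, Foxn, Foxo and Foxp genes, a group formed after the values were seen, made up most of these, with 15, 13 and 14 of 16 called. The other Fox genes, many of which act in the embryo, had 7, 5 and 10 of 21. The 15 members listed as broadly used in many tissues were all called in all 3 lists, against 51.0% of all genes, and 15, 13 and 15 of them after scaling. This list was drawn up with earlier results of these data known and shares many genes with the Fox group above. Its count is therefore a description and not independent support for that division.

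Foxk2, a forkhead factor with broad expression, had the strongest promoter peak of the set in the WT and 1 week lists, with a -log10 q of 22.4, 12.4 and 14.6 in the WT, 1 week and 5 week lists, the order used for the values that follow. Its peak lay at chr11:121120834-121122357 in WT, over the main start, and within its list it stood at the 96.8, 96.7 and 91.7 percentile. Foxk1, its close relative, had 15.2, 2.60 and 8.09. The Foxk1 peak was weakest at 1 week and was not called there after scaling. Foxn3, a forkhead repressor, had 12.0, 6.99 and 14.7, and Foxo6, a forkhead factor of the insulin-responsive Foxo group, had 11.02, 3.01 and 15.1. Within its list the Foxn3 peak stood at the 85.0, 89.8 and 91.7 percentile and that of Foxo6 at 82.9, 70.9 and 92.2. By this measure, whose scale differs between lists, Foxo6 but not Foxn3 was lowest at 1 week. Sox13, a SoxD factor, had 13.5, 3.66 and 8.32, and Sox12, a SoxC factor, had 10.1, 6.503 and 13.3.

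Among members linked to islet development or function, the 3 lists called 12, 12 and 14 of 16, and 12, 8 and 12 after scaling. Shares over all genes were 59.9%, 56.1% and 66.7%, and 59.7%, 47.6% and 56.9% after scaling. Foxo1, Foxm1, Foxp1, Foxp4 and Sox4 are also among the broadly used members, all of which were called in all 3 lists. The islet-linked list was drawn up with earlier results known, so its count is a description and not a result particular to islet genes. Foxo1, which restrains beta cell growth and guards beta cell identity, stood at 7.31 in WT, 5.64 at 1 week and 10.2 at 5 weeks on the -log10 q scale. Foxm1, a driver of cell division in beta cells, had 4.63, 7.76 and 10.7. Its peak also reached the promoter window of the neighbouring gene 5930416I19Rik, so it cannot be assigned to Foxm1 alone. The peaks of Foxq1 and Foxj3 likewise reached the windows of A530084C06Rik and AA415398. Foxp1, Foxp2 and Foxp4, which act together in alpha cells, were called in every list, with 3.86, 6.45 and 5.70 for Foxp1, 5.89, 5.55 and 4.51 for Foxp2 and 10.7, 2.12 and 7.27 for Foxp4. The strongest Foxp2 peaks lay at different starts, that of 1 week 282240 bp from that of WT, so the 3 Foxp2 values do not follow 1 promoter. The Foxp4 peak was not called at 1 week after scaling.

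Gata4 and Gata6, zinc finger factors needed for the formation of the pancreas, differed from each other. Gata6 was called in all lists, with 5.73, 9.38 and 5.69, and its 1 week peak was at the 93.9 percentile of its list. Gata4 had 3.33 in WT, no promoter peak at 1 week and 5.14 at 5 weeks. Sox4, needed for endocrine differentiation, had 9.12, 4.89 and 7.98, and Sox5, a SoxD factor, had 4.47, 4.50 and 7.11. Tbx3, a T-box repressor, stood at the 28.3, 65.3 and 77.4 percentile of the lists, with a -log10 q of 2.23, 2.65 and 6.62. Lhx1, a LIM homeobox factor, had 6.53, 1.53 and 6.94, with the 1 week and 5 week peaks 1564 bp apart, and Wnt4, a Wnt ligand of mature beta cells, had 4.79, 1.99 and 4.59. Neither was called at 1 week after scaling.

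Of the other 4 islet-linked members, Six2 and Six3, homeobox factors linked to human beta cell maturation, had no promoter peak in WT. Six2 had a -log10 q of 1.25 at 1 week and 1.77 at 5 weeks, and Six3 had 2.46 at 5 weeks alone. None of these weak peaks was called after scaling. Pax4, which acts in endocrine progenitors, and Wnt5a, a ligand of the non-canonical pathway, were called in no list. The nearest WT peak lay 24967 bp from the main start of Pax4 but only 249 bp from that of Wnt5a, outside its window.

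The 13 genes without a call at 1 week but with one in both other lists included 4 Wnt ligands. The WT peak of Wnt9b, at chr11:103610525-103611520, scored 4.54 for -log10 q, and that of 5 weeks scored 11.98. Foxj1, the master factor of motile cilia, had 3.27 and 11.8. Wnt9a had 2.98 and 10.1, and Tbx6, a factor of paraxial mesoderm, had 3.06 and 8.60. In these 4 the -log10 q was higher at 5 weeks. The peak stood at the 82.5 to 88.4 percentile of its list against 41.4 to 57.2 in WT, percentiles that are not on a like scale. Sox30, a factor of male germ cells, had 8.50 and 7.71, and Foxf1a, a factor of visceral mesenchyme, had 6.21 and 7.31. After scaling, 11 of the 13 were still called at 5 weeks.

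Genes called only after Taf4 loss had weaker peaks. Of the 8 called in both Taf4 KO lists but not in WT, Gata2, a factor of blood and endothelium, had 4.85 at 1 week and 4.50 at 5 weeks. Gata3, a factor of T cells and trophoblast, had 4.15 and 3.34. Dlx6, a homeobox factor of forebrain and jaw, had 3.96 and 4.89. Foxl2, a factor of the ovary, had 2.07 and 2.71, Sox7, an endothelial SoxF factor, had 2.17 and 3.14, and Wnt2, a ligand of foregut mesoderm, had 1.56 and 3.83. After scaling 3 of the 8 were left at 1 week (Dlx6, Gata2 and Gata3) and 2 at 5 weeks (Dlx6 and Gata2).

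The 14 genes called at 5 weeks alone had -log10 q of 1.17 to 4.95. Wnt7b, a ligand used in epithelia, had 4.95, with a peak of 2081 bp. It was the only one of the 14 to be called after scaling. Dlx1, a factor of forebrain interneurons, had 4.15, Wnt10b 4.09, Pax2, a factor of kidney and eye, 3.24, and Foxi3, a factor of ectodermal appendages, 3.16. The 3 genes called at 1 week alone were Dlx5, a factor of the skeleton, at 2.20, Tbx15, a factor of muscle and bone, at 1.80 and Lhx6, a factor of interneurons, at 1.495, and none was called after scaling. Of all 22 promoters called at 5 weeks and not in WT, 6 had a peak that met a WT peak lying outside the window.

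Genes called in WT alone were likewise weak. Their -log10 q was 2.95 for Tbx10, 2.02 for Wnt3, 1.98 for Six6, 1.88 for Foxc2, 1.32 for Foxn4 and 1.28 for Pax3, and 5 of the 6 peaks were 200 to 303 bp wide. Foxc2 and Pax3 act in mesenchyme and neural crest, Six6 and Foxn4 in the eye, and Wnt3 in the early embryo. No Taf4 KO peak overlapped any of these 6 WT peaks.

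Members with clear functions in other tissues were called less often in WT than the set as a whole. Their lists were drawn up with earlier results of these data known, so these counts are a description. Over all genes the WT, 1 week and 5 week shares were 59.9%, 56.1% and 66.7%, and 59.7%, 47.6% and 56.9% after scaling. Of 23 neural members the WT, 1 week and 5 week lists called 6, 6 and 10 (26.1%, 26.1% and 43.5%), and 6, 2 and 1 after scaling. Of 19 members of mesoderm, heart, limb and vessel there were 6, 5 and 11 (31.6%, 26.3% and 57.9%), and 6, 1 and 3 after scaling. In both groups the 5 week count was above WT in the full lists and below it after scaling. By family, the counts in the 3 lists (WT, 1 week, 5 weeks) were 9, 7 and 11 of 15 for Sox, 2, 1 and 3 of 8 for Pax, 3, 3 and 5 of 12 for Tbx, 4, 5 and 5 of 8 for Lhx, 4, 3 and 5 of 6 for the sine oculis homeobox family, 0, 2 and 3 of 6 for Dlx, 2, 3 and 4 of 5 for Gata and 10, 6 and 12 of 19 for Wnt. Dlx was the only family with no WT call, and 5 of the 10 Wnt genes called in WT had no promoter peak at 1 week.

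**Figure D2:**
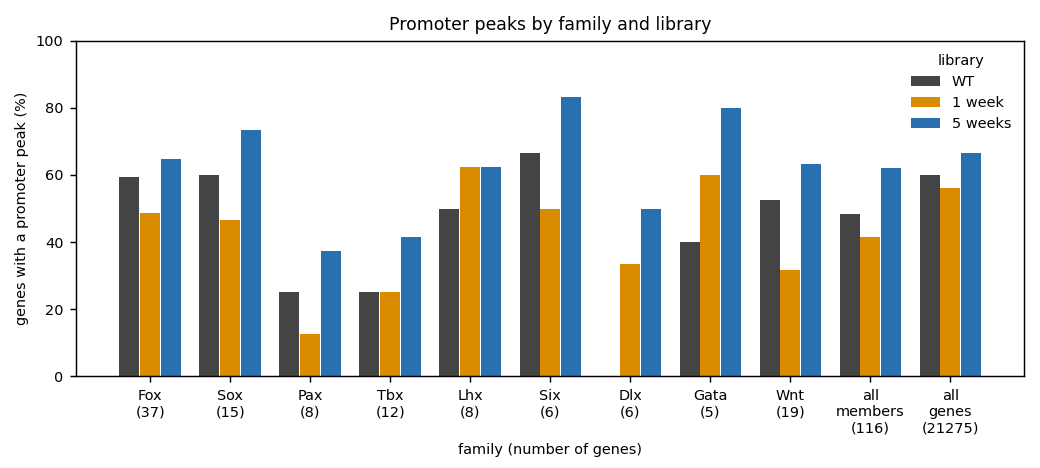
Share of genes with a promoter peak (vertical axis, percent) by family, with the number of genes in parentheses, in WT (grey), at 1 week (orange) and at 5 weeks (blue), beside all 116 members and all 21275 genes. The 5 week bar is the highest or shares the highest value in each family, and Dlx has no WT bar.

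The Hox genes, the most similar group, were called still less often in WT, at 2 of 39, and at 0 and 13 of 39 at 1 and 5 weeks. After scaling 1 of 39 was called at 5 weeks. No Hox gene was called in all 3 lists, against 37 of the 116 members of the other families. The lower 1 week and higher 5 week counts in the full lists, and the decrease after scaling, were found in both groups.

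Genes that work with the members were mostly called. Of 48 Wnt pathway genes that are no ligand, the WT, 1 week and 5 week lists called 41, 36 and 45. After scaling the counts were 41, 30 and 35. Shares over all genes were 59.9%, 56.1% and 66.7%, and 59.7%, 47.6% and 56.9% after scaling. Most of the 48 lie in classes 3 to 5 of promoter CpG content, described below. In those classes 74.4%, 92.2% and 96.0% of other genes were called in WT. The calls were not compared at like CpG content. In the full lists the 13 intracellular components, such as Ctnnb1 and Gsk3b, had 13, 11 and 13 calls. The 15 receptors and co-receptors had 14, 11 and 14, whereas the 10 secreted inhibitors had 5, 6 and 9. The 10 R-spondins, their receptors and ligases, and Wls, which carries Wnt proteins to the cell surface, had 9, 8 and 9. Ligands were thus called less often in WT, at 10 of 19, than the machinery that receives them. Of 13 cofactors of member proteins, such as the Eya and Tle genes, 10, 10 and 13 were called (76.9%, 76.9% and 100%), and 10, 8 and 9 after scaling. In the Wnt pathway genes and the cofactors the 5 week count was thus above WT in the full lists and below it after scaling.

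Peaks over the members were weak but wide. In the WT, 1 week and 5 week lists the median -log10 q of called members was 3.75, 3.53 and 4.92, against 12.2, 6.23 and 13.1 for other called genes. The median percentile within the list was 50.4, 76.1 and 71.7 against 85.4, 87.98 and 89.9. The median width was nonetheless 1156, 1049 and 1320 bp against 1012, 864 and 1080 bp. Among the 37 members called in all lists it was 1524, 1273 and 1905 bp against 1050, 879 and 1151 bp for other genes called in all lists. Gata6 had the widest 5 week peak of the set, at 3543 bp.

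The loss of WT calls went with the strength of the WT peak. Of 18 members with a WT -log10 q under 3, 11 had no promoter peak at 1 week (61.1%, interval 38.6 to 79.7), against 52.1% of other genes in that range. From 3 to under 5 it was 6 of 16 (37.5%, 18.5 to 61.4) against 26.3%. At 5 and over it was 2 of 22 (9.09%, 2.53 to 27.8) against 9.55%. The interval of the members held the value of the other genes in each range, so at like WT strength a difference at 1 week was not detectable with these numbers. All 6 members not called at 5 weeks had a WT -log10 q under 3 (6 of 18, 33.3%, 16.3 to 56.3, against 16.3% of other genes in that range).

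Among the genes called in both WT and a Taf4 KO list, ranks of the promoter peak were compared, with 0 for the weakest gene and 100 for the strongest. In the 37 members shared by WT and 1 week the median rank was 14.9 in WT and 28.8 at 1 week. At 1 week 27 of 37 ranked higher (73.0%, against 52.8% of other genes). The 19 members called in WT but not at 1 week have no rank here. Members also started lower than other genes, whose median WT rank was 50.1, and the shares were not matched on WT rank. A difference between these shares therefore cannot be told apart from the lower start and the missing genes. The largest upward shifts were those of Gata6, from 14.9 to 68.6, and Foxm1, from 10.9 to 57.9. The largest downward shift was that of Foxk1, from 58.7 to 9.06. In the 50 shared by WT and 5 weeks the median rank was 13.8 and 14.8, and 23 ranked higher (46.0%, against 49.2%). Foxj1 moved up most, from 8.77 to 37.6, followed by Wnt9b, from 14.0 to 38.5. The largest downward shifts were greater, those of Foxk1, from 62.6 to 19.4, and Sox13, from 55.5 to 20.4.

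The CpG content of the promoter, measured as observed over expected CpG in the 1 kb around the main start, separated members from other genes. The median was 0.72 in members and 0.56 over all genes. When all genes were divided into 5 equal classes by this measure, 39 members fell in class 4 (0.67 to 0.81) and 34 in class 5 (0.81 and over). In class 4, 14 of 39 members were called in WT, or 35.9% (22.7 to 51.6), against 92.2% of other genes. In class 5 it was 25 of 34, or 73.5% (56.9 to 85.4), against 96.0%. At 1 week the members of these classes were at 33.3% and 61.8%, against 81.4% and 86.9%, and at 5 weeks at 51.3% and 85.3%, against 95.9% and 97.9%. In classes 1 and 2, the poorest in CpG, 3 of 6 and 5 of 14 members were called in WT, against 9.27% and 28.2%. The intervals of these shares were 18.8 to 81.2 and 16.3 to 61.2, and that of class 2 held the value of other genes. CpG was measured at the main start only, and the WT peaks taken for Gata4, Sox6, Foxp1 and Foxp2 lay at other starts. CpG-rich promoters of developmental regulators were therefore called less often than those of other genes in each library. For CpG-poor promoters these few calls do not decide the order in WT.

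**Figure D3:**
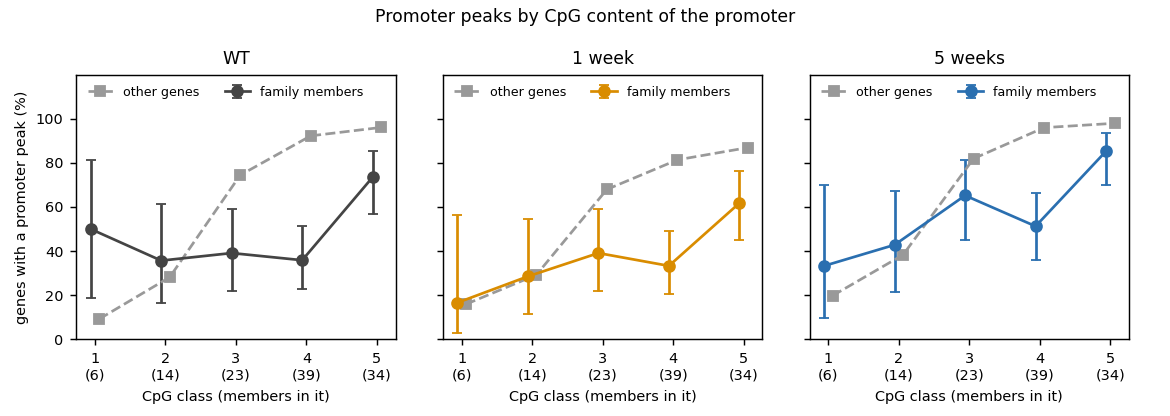
Share of genes with a promoter peak (vertical axis, percent) by CpG class of the promoter (horizontal axis, 1 poorest, 5 richest, number of members in parentheses) in each library. Coloured points are the members with Wilson 95% intervals and grey squares other genes, and members lie below other genes in classes 3 to 5 in all 3 libraries.

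Members without a promoter peak were often accessible nearby in WT and at 5 weeks. In the gene with 10 kb on both sides, 49 of the 60 members without a WT promoter peak had another WT peak (81.7%, against 47.0% of other such genes). At 5 weeks it was 41 of 44 (93.2%, against 72.0%), but at 1 week 39 of 68 (57.4%, against 62.3%), so the higher share of members was not seen there. Of the 34 members in CpG classes 4 and 5 without a promoter peak in WT, 24 had a WT peak within 5 kb of the main start (70.6%, against 54.7% of 495 other such genes). At 5 weeks it was 22 of 24 (91.7%, against 58.3%). At 1 week it was 14 of 39 (35.9%, against 26.9%), with a median distance of 14016 bp, against 1150 bp in WT and 432 bp at 5 weeks.

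Neighbouring peaks were also counted beyond each edge of the window. The downstream edge lies 100 bp from the start and the upstream edge 1000 bp. Genes with a peak between these edges were already left out. The sides are therefore not at like distance from the start, and only members and other genes on the same side can be compared. Within 1000 bp past the downstream edge of the window there was a WT peak in 16 of those 34 members (47.1%, against 29.5% of other genes), and within 1000 bp beyond its upstream edge in 1 (2.94%, against 8.08%). At 5 weeks the downstream count was 15 of 24 (62.5%, against 25.1%) and at 1 week 8 of 39 (20.5%, against 12.4%). The 16 in WT included Sox2, a pluripotency and neural factor, with a WT peak 519 bp from its main start, Foxd3, a neural crest factor, at 947 bp, Lhx5, a brain factor, at 108 bp and Sox18, a vessel factor, at 849 bp. Tbx1, a factor of the heart outflow tract, had its nearest WT peak at 3323 bp. The promoter count of the members therefore depended on where the window ended, as the counts for the wider window show.

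In the profile around the main start of the 73 members in CpG classes 4 and 5, 43.8% had a WT peak at the start itself, against 90.0% of 8437 other genes. At 1000 bp downstream the order was reversed, with 34.2% against 17.2%, and at 1000 bp upstream the shares were 6.85% and 8.83%. At 5 weeks the shares at the start were 64.4% and 94.3%, and 1000 bp downstream 45.2% and 23.2%. At 1 week they were 38.4% and 77.4% at the start and 17.8% and 14.6% downstream. The broad downstream shoulder of the members was thus present in WT and at 5 weeks and small at 1 week.

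**Figure D4:**
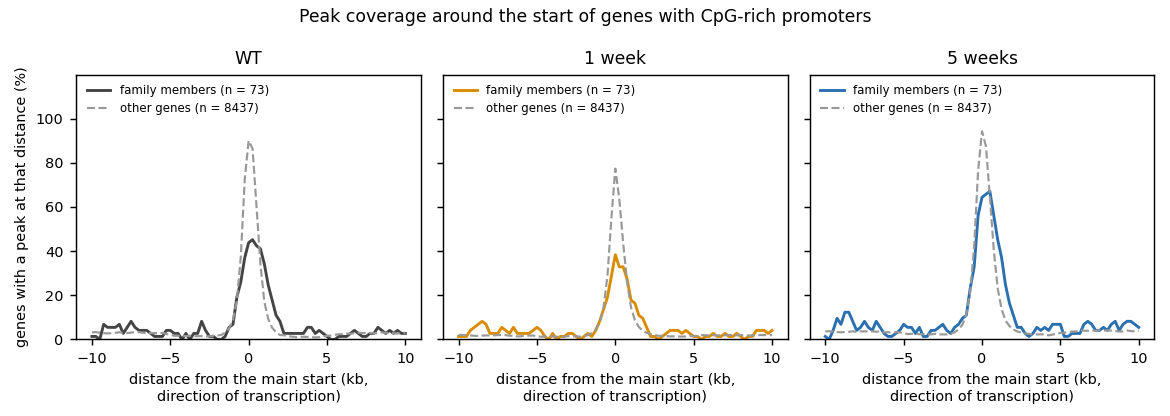
Share of genes with a peak (vertical axis, percent) at each 250 bp step from 10 kb before to 10 kb after the main start (horizontal axis, kb, positive in the direction of transcription) for genes in CpG classes 4 and 5. Solid lines are the 73 members and dashed lines 8437 other genes, and in WT and at 5 weeks the members have a lower summit at the start and a wider shoulder downstream of it.

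The loss at 1 week also varied with the GC content of the surrounding 1 Mb, divided into 5 classes over all genes. In the most GC-rich class 11 of 17 members called in WT had no promoter peak at 1 week (64.7%, against 29.7% of other genes). In class 1 it was 0 of 4 (against 2.13%), in class 2 4 of 12 (33.3%, against 5.79%), in class 3 1 of 13 (7.69%, against 9.21%) and in class 4 3 of 10 (30.0%, against 18.1%). The share thus went up from class to class in other genes and not in members. Of the 11 members called at 1 week and not in WT, 4 lay in class 1, of 6 not called in WT (66.7%, against 19.5% of other genes), and 0 in class 5, of 14 (against 3.63%). The highest loss in the most GC-rich class was shared with other genes, and GC content and Taf4 loss cannot be told apart with 1 library per group.

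**Figure D5:**
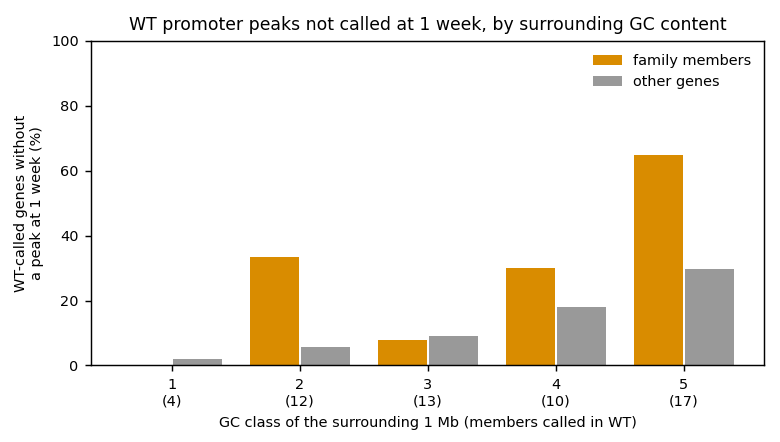
Share of genes called in WT that had no promoter peak at 1 week (vertical axis, percent) by GC class of the surrounding 1 Mb (horizontal axis, 1 lowest, 5 highest, number of members called in WT in parentheses). Orange bars are members and grey bars other genes, and both are highest in class 5, at 64.7% and 29.7%.

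Neighbouring members could share or differ in their pattern, and no share expected by chance was computed. Of 13 pairs whose main starts lie within 100 kb of each other, 2 had the same pattern over the 3 lists, namely Tbx2 and Tbx4, called at 5 weeks alone, and Wnt6 and Wnt10a, called in none. Wnt9b and Wnt3 start 24329 bp apart, and Wnt9b was called in WT and at 5 weeks whereas Wnt3 was called in WT alone. Dlx6 and Dlx5 start 18751 bp apart, and Dlx6 was called at both times after Taf4 loss whereas Dlx5 was called at 1 week alone. Calls of linked members share a region and are not independent.

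Short motifs were searched on both strands in the 300 bases from 250 before to 50 after the main start. A full match to the palindromic NRF1 motif was found in 0 of 116 members, against 1.19% of all promoters. The GC box GGGCGG was found in 62.9% of members against 44.9%, the CCAAT box CCAAT in 47.4% against 37.2%, and the TATA box TATAAA in 6.90% against 13.6%. Other genes called in WT had 64.5%, 37.0% and 6.78%. The GC box and TATA box shares of the members were thus near those of other called genes. The CCAAT letters were present in 41.1% of members called in WT and 53.3% of those not called, and the GC box in 66.1% and 60.0%. In the printed promoters the GC box occurs in those of Foxk2, Wnt9b and Tbx1 and the TATA box in none, each counted with the 50 bases after the start. A match describes these letters and says nothing of a factor bound there.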

How the data were processed

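ATAC-seq was performed by the authors on dissociated islet cells, 1 library each for WT, Taf4 KO 1 week and Taf4 KO 5 weeks, and the genotype and time labels gave the groups. The authors mapped reads to mm9 with Bowtie 1.0.0, kept unique alignments and called broad peaks per library with MACS2 2.1.1. A control library, duplicate removal or read shift was not given in the sources used here. The deposited lists give each peak's position, its fold over local background as a ratio, its -log10 p and its -log10 q. The deposited whole-number score was not used.

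Peaks were intersected (overlap from 1 bp) with windows that ran from 1000 bp before to 100 bp after every start of a protein-coding transcript in the GENCODE annotation of the same build, with Python 3.11.15, pandas 2.3.3, numpy 2.4.6 and scipy 1.17.1. Genes on X and Y and 2 mitochondrial peaks per list were left out. A member with several peaks took the one with the highest -log10 q. In 5 members (Foxp2, Lhx1, Lhx8, Sox6 and Wnt5b) the peaks so taken did not all overlap between lists. The main start was that of most transcripts. Where a symbol occurred more than once, the longest gene was used.

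Read totals are not in peak lists. Fold and p together fix the background of a peak when both are taken as values of a single position. The floor of each list (its first percentile) was 3.66, 6.45 and 9.38 reads in the WT, 1 week and 5 week lists. Equal read extension was assumed. Scaled lists kept peaks whose recomputed Poisson p at WT depth reached the first percentile of the WT list (60289, 52295 and 47602 peaks). The promoter call and the recovery of the background were tested on simulated data, where each peak had a single read count and background. The listed values are means over a peak, so this test does not measure the error of the recovered depths or of the scaled lists. Wilson 95% intervals cover the counting of genes only, and differences between animals cannot be measured with 1 library per group.

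The members and gene lists were chosen with earlier results of these data known. Named genes were, for each call pattern, the 6 members with the highest -log10 q, the 6 uncalled members richest in CpG, and all islet-linked members. Of the items this rule or the family rule selected, 2 genes and 2 promoter sequences are not reported here. The genes with the largest rank shifts, the gene with the widest peak, linked pairs and the division of the Fox family were named after their values were seen, as was the comparison beyond the edges of the window. Alternatives were 2 stricter thresholds, lists of equal number or length, scaled lists, 2 other windows, 1 start per gene and a longer overlap.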

Additional observations from a re-analysis of the deposited data

Results flagged for a closer look

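The full lists differed in direction between the Taf4 KO libraries. The net difference from WT in members with a promoter peak was -8 at 1 week and 16 at 5 weeks. The same opposition was seen in 5 families, with -4 and 2 for Fox, -2 and 2 for Sox, -1 and 1 for Pax, -1 and 1 for the sine oculis homeobox family, and -4 and 2 for Wnt. These differences between the times were not tested, since each group has 1 library and both times share the WT library. In lists scaled to the WT background both times were below WT for the members as a whole, at -26 and -14.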

How the results depend on the processing

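No paired analysis was possible because each group has 1 library. A -log10 q threshold of 3 left 27 members called at 1 week, with 4 gained at 1 week and 2 lost at 5 weeks, and a threshold of 5 left 22, 16 and 35 called in the WT, 1 week and 5 week lists, with 9 lost and 3 gained at 1 week and 1 lost and 14 gained at 5 weeks. In lists of equal number 3 were gained at 1 week, 13 were lost and 10 gained at 5 weeks, and the net differences were -24 and -3. In lists of equal covered length 42 were called at 5 weeks, 3 were gained at 1 week, 17 were lost and 3 gained at 5 weeks, and the net differences were -24 and -14. After scaling, 30 and 42 were called at 1 and 5 weeks, 29 were lost and 3 gained at 1 week, 17 lost and 3 gained at 5 weeks, and the net differences were -26 and -14. With the whole gene and 1000 bp upstream as window, 95 were called in WT, 30 were lost and 7 gained at 1 week, with a net difference of -23. The net difference at 5 weeks thus reversed in the 3 settings that match list size or depth and stayed positive in the other 6, whereas that at 1 week was negative in all 9. The cause was not tested. The remaining counts stayed within 1.5 times their reported value. Weak peaks limit the statements on single genes: of the 22 promoters gained at 5 weeks, 0 had a -log10 q of 5 or more and 3 were called after scaling.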
